A study of Rattus norvegicus with 24 samples.

Results

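Genes whose symbol starts with Kcn encode the pore-forming and auxiliary subunits of potassium channels, and they were followed in the hypothalamus of Sprague Dawley rat pups at PN10, that is postnatal day 10. Every gene with such a symbol was taken from the deposited count tables, without regard to its values, which gave 88 members. The female table lists 88 of them among 14073 genes, and for males 87 of 14077 genes are members, since Kcne1 is listed for females alone, with 3 counts over all its libraries. A filter on low counts left 73 members to be tested in females, 74 in males and 76 over the 24 libraries together. Kcng4 and Kcnv2 passed it over the 24 libraries alone, and Kcnk13 did so there and in males. The 12 members kept in none of these fits were Kcna7, Kcne1, Kcne3, Kcne4, Kcng3, Kcnj1, Kcnj13, Kcnj15, Kcnk18, Kcnmb1, Kcnn4 and Kcnq1.

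The libraries came from whole hypothalamus of offspring of dams that ate a high fat diet (HFD-O, 43% of digestible energy as lipid) or a control diet (CON-O, 12%) from before mating until PN10. Exposure thus spanned gestation and suckling. There were 6 libraries in each of the groups female HFD-O, male HFD-O, female CON-O and male CON-O. All CON-O libraries have lower library numbers than all HFD-O libraries, so diet and library order cannot be told apart. The litter of each library is not given, and p-values therefore measure the spread between libraries. By the study's methods the litters of each diet were fewer than its libraries, so some libraries of each diet came from siblings. Values over both sexes rest on fewer litters than libraries in HFD-O and in CON-O.

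Library totals ran from 6132112 to 7994399 counts. Levels are given as CPM, counts scaled to the total of the library with TMM factors that lay between 0.978 and 1.019, and differences as log2 fold changes of HFD-O over CON-O with their standard errors (SE). A gene was called where its adjusted p in edgeR's quasi-likelihood test was under 0.05. The tissue label was checked against its markers: 10 of 11 hypothalamic genes were listed, Pmch being the exception, all 10 tested, and 10 of 10 neuronal genes were tested. Anterior pituitary genes summed to at most 5.53 CPM in any library, while thalamic genes summed to between 54.8 and 309 CPM. Neither table lists Xist or Y-linked genes, so the sex labels were not checked, and because each sex has a table of its own, sex and table cannot be told apart.

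Potassium channels let potassium leave the cell and so pull the membrane back towards rest. Voltage-gated channels shape the action potential and the pause after it, calcium-activated channels link firing to calcium entry, inward rectifiers hold the resting potential and answer to G proteins or ATP, and K2P (tandem pore) channels carry the leak current. In the hypothalamus the ATP-sensitive channel, formed by Kir6.2 (Kcnj11) and the sulfonylurea receptor SUR1 (Abcc8), is known for linking glucose to the firing of neurons, and astrocytes clear potassium through Kir4.1 (Kcnj10). Silent subunits pass no current alone and act by joining Kv2 channels.

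The promoter sequences of 5 members are shown because the results below turn on these genes: the Shal pore Kcnd2, the silent subunit Kcns1, the leak channel Kcnk5, the astrocyte channel Kcnj10 and Kcnj13, whose counts followed the meningeal genes. They are RefSeq sequences of the rat build GRCr8, which is not the build of the counts (rn6), and each holds 250 bases before the start of the gene and 50 after it, 300 in all, read 5′ to 3′ along the gene. The windows are chr4:50742235-50742534 (plus strand) for Kcnd2, chr3:173262297-173262596 (minus strand) for Kcns1, chr15:4171375-4171674 (plus strand) for Kcnk5, chr13:87334260-87334559 (plus strand) for Kcnj10 and chr9:95518937-95519236 (minus strand) for Kcnj13. Capitals mark a GC box (GGGCGG, or CCGCCC for the other strand) or a TATA box (TATAAA, or TTTATA for the other strand).
Kcnd2: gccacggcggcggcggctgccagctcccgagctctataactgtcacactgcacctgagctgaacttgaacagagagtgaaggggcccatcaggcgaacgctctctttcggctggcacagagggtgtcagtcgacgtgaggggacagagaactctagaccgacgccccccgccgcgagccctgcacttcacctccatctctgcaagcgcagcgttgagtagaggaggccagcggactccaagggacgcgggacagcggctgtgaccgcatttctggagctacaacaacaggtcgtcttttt
Kcns1: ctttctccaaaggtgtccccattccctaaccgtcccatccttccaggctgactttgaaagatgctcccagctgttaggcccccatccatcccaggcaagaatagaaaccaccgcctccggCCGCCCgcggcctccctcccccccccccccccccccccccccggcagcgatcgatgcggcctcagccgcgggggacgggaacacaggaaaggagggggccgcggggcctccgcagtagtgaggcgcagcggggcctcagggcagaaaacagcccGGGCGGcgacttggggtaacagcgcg
Kcnk5: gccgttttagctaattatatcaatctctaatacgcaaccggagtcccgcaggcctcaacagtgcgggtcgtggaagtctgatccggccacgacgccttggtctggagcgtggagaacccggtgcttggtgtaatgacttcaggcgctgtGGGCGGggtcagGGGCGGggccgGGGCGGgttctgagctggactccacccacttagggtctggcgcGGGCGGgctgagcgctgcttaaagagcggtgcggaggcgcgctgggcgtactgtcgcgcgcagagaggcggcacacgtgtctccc
Kcnj10: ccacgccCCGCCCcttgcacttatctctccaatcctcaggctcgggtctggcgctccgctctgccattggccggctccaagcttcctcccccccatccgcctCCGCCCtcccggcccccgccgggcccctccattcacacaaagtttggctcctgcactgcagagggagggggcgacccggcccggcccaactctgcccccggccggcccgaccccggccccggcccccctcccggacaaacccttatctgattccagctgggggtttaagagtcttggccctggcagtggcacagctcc
Kcnj13: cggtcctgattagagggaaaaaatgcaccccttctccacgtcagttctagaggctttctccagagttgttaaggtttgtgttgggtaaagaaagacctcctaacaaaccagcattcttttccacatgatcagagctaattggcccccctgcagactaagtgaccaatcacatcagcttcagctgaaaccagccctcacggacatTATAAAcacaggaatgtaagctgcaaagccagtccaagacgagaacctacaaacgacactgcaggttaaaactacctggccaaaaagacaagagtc

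Kcnk5 held 4 GC boxes, Kcns1 and Kcnj10 held 2 each, and Kcnd2 held neither motif. The window of Kcnj13 held 1 TATA box and no GC box. A promoter was found for 58 of the 88 members, and 30 of them (51.7%) had a GC box, against 9580 of 27457 promoters in the table (34.9%). A TATA box stood in 2 of the 58 (3.45%), Kcnj1 and Kcnj13, against 3916 of all promoters (14.3%). No match of letters shows that a factor binds there.

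The question of the main comparison was whether maternal HFD moved the expression of potassium channel genes in the offspring. No Kcn gene was called in either sex, but the estimates leaned below CON-O across most subfamilies. In females 0 of 73 members were called by edgeR's quasi-likelihood test, where 0% of 11409 genes were called, and the smallest adjusted p was 0.524. An unadjusted p under 0.05 was reached by 5 members (7.09% of all genes in either direction), 0 of them higher in HFD-O (4.51% of all genes) and 5 lower (2.59%), among them Kcnd2, Kcnh2, Kcns2 and Kcng2. The likelihood ratio test, DESeq2 and limma-voom called 0 members too, with 6, 4 and 6 of them at an unadjusted p under 0.05. By the quasi-likelihood test this number was 10 without CON-O library 4, 3 without HFD-O library 16 and 12 without HFD-O library 24. Estimates below 0 were found for 49 of the 73 members (67.1%), against 50.6% of all genes, and the median log2 fold change was −0.068 over the members and −0.0013 over all genes.

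In males 0 of 74 members were called by the same test (0% of 11476 genes), with a smallest adjusted p of 0.949. Here 4 members had an unadjusted p under 0.05 (4.93% of all genes), 2 with higher levels in HFD-O (2.76%), Kcnk5 and Kcnv1, and 2 with lower levels (2.17%), Kcns1 among them. The count was 7 without CON-O library 3. The likelihood ratio test, DESeq2 and limma-voom called 0 members, with 4, 2 and 4 of them at an unadjusted p under 0.05. Estimates were below 0 for 52 of 74 members (70.3%), against 50.4% of all genes, with a median of −0.065 beside −0.00094 over all genes.

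Over both sexes 0 of 76 members were called by the quasi-likelihood test, where 22 of 11648 genes (0.189%) were. Unadjusted p was under 0.05 for 9 members (12.7% of all genes), 1 higher (7.26%) and 8 lower (5.44%), and this number was 16 without female CON-O library 4, 17 without female HFD-O library 24 and 4 in a limma-voom fit that let consecutively numbered libraries share a deviation. The likelihood ratio test called 1 member, DESeq2 called 1 and limma-voom called 0, and without female HFD-O library 24 the quasi-likelihood test called 1. Estimates were below 0 for 54 of 76 members (71.1%), against 50.7% of all genes, and the median was −0.054, beside −0.0013 over all genes. In these bulk libraries, fewer cells of a type and less RNA per cell cannot be told apart.

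**Figure D1:**
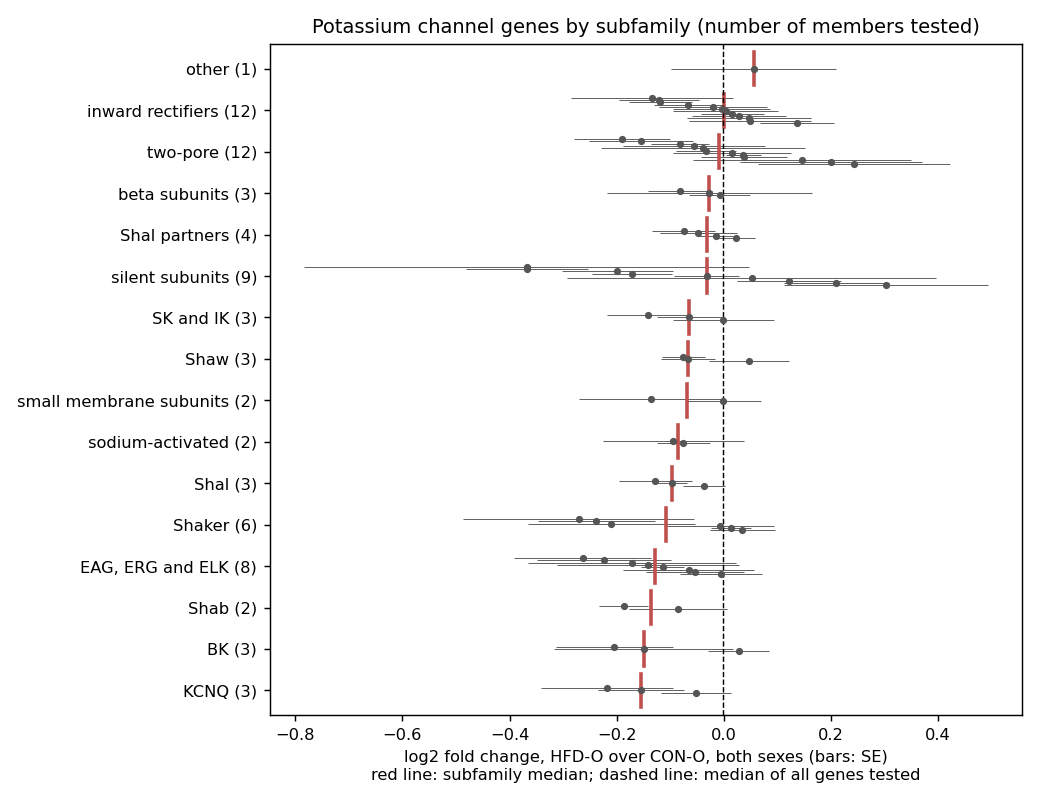
Log2 fold change of HFD-O over CON-O over both sexes (horizontal axis) for each of the 76 tested Kcn genes, 1 point a gene with its SE as a bar, grouped by subfamily down the page, with a red line at the subfamily's median and a dashed line at the median of all genes. All 8 points of the EAG, ERG and ELK genes lie below 0, while the inward rectifiers and the K2P genes spread to both sides of it.

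Subfamilies differed in their lean, with no test run between them. Over both sexes the median was −0.15 for KCNQ (3 of 3 members below 0), −0.15 for the calcium-activated BK channel and its beta subunits (2 of 3), −0.13 for the EAG, ERG and ELK genes (8 of 8), −0.11 for Shaker (4 of 6) and −0.10 for Shal (3 of 3). Medians lay nearer 0 for the sodium-activated pores (−0.085, 2 of 2), the small membrane subunits (−0.069, 2 of 2), Shaw (−0.067, 2 of 3) and the calcium-activated SK genes (−0.064, 3 of 3). The silent subunits (−0.032, 5 of 9), the Shal partners (−0.031, 3 of 4) and the Shaker beta subunits (−0.028, 3 of 3) followed. The K2P genes (−0.0091, 6 of 12) and the inward rectifiers (−0.00053, 6 of 12) had as many estimates above 0 as below it, and Kcnrg, a soluble regulator of channel assembly, stood at 0.055.

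**Figure D2:**
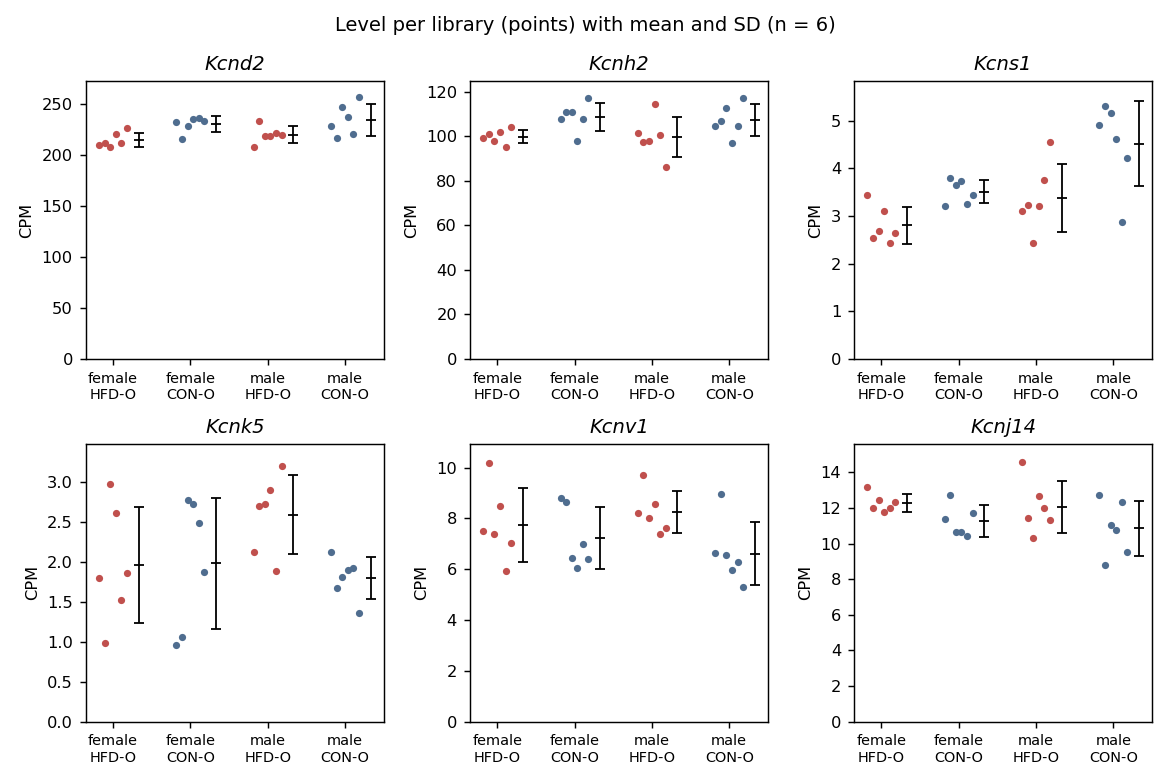
Level of 6 Kcn genes in each library (points, CPM) by group, HFD-O left of CON-O within each sex, with the group mean and its SD beside the points (n = 6). In each sex all Kcns1 points of HFD-O lie below the CON-O median, and the groups overlap in every panel.

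The Shal gene Kcnd2 encodes Kv4.2, which carries the A-type current of dendrites. Its lowest, median and highest levels were 208, 211 and 226 CPM in female HFD-O, against 215, 233 and 236 CPM in female CON-O. In males they were 208, 219 and 233 CPM in HFD-O, against 217, 233 and 257 CPM in CON-O. Triples of levels given below for other genes follow the same order. No female HFD-O library and 1 male HFD-O library stood above the CON-O median, with overlap in each sex, and the lowest CON-O library of each sex lay among the HFD-O values. The log2 fold change was −0.10 (SE 0.04) in females, with a two-sided exact permutation p of 0.00866 (n = 6 each), where the smallest p such a test allows is 0.0022, and −0.09 in males with an exact p of 0.0758. Over both sexes it was −0.10 (SE 0.03), with an adjusted p of 0.152 in edgeR's quasi-likelihood test. The other Shal pores were Kcnd1 at −0.13 and Kcnd3 at −0.04 over both sexes. Among the calcium-binding KChIP partners of Kv4 channels, Kcnip1 stood at −0.02, Kcnip2 at 0.02 and Kcnip4 at −0.07. In RefSeq the span of Kcnd2 overlaps that of a gene model named Kcnd2l1. Exons and strands of the pair were not compared and the strand setting of the counting is not given, so whether they share reads is not known. The same holds for Kcnh7 with Gca, Kcnj9 with Igsf8, Kcnip1 with Kcnmb1, Kcnk2 with LOC120096345 and Kcnv2 with Pum3.

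Among the silent subunits, Kcns1 had lower levels in HFD-O of both sexes and Kcnv1 higher levels. Kcns1 (Kv9.1) had 2.43, 2.67 and 3.45 CPM in female HFD-O, against 3.21, 3.55 and 3.79 CPM in female CON-O. It had 2.45, 3.22 and 4.55 CPM in male HFD-O, against 2.88, 4.76 and 5.30 CPM in male CON-O. No HFD-O library of either sex exceeded its CON-O median. In females the log2 fold change was −0.33 (SE 0.15) and in males −0.41 (SE 0.18), with exact permutation p of 0.0108 and 0.0433 (n = 6 each). Over both sexes it was −0.37 (SE 0.11), with an adjusted p of 0.164 in edgeR's quasi-likelihood test.

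Kcnv1 (Kv8.1) had 7.37, 8.11 and 9.69 CPM in male HFD-O, against 5.28, 6.43 and 8.94 CPM in male CON-O. Every male HFD-O library lay above the CON-O median, although the highest CON-O library lay within the HFD-O values. The log2 fold change in males was 0.32 (SE 0.13), with an exact permutation p of 0.0216 (n = 6 each). In females it was 0.10, with an exact p of 0.530, and 5 of 6 HFD-O libraries exceeded the CON-O median. The estimate for Kcnv1 over both sexes was 0.21 (SE 0.10), with an adjusted p of 0.374 in edgeR's quasi-likelihood test. Kcns2 (Kv9.2) had 9.30, 10.9 and 13.4 CPM in female HFD-O, against 12.3, 13.3 and 14.0 CPM in female CON-O. Its log2 fold change was −0.26 (SE 0.10) in females, with an exact permutation p of 0.0152, and −0.09 in males. The estimate for Kcns2 over both sexes was −0.17 (SE 0.07), with an adjusted p of 0.338 in edgeR's quasi-likelihood test. The female log2 fold change of Kcng2 (Kv6.2) was −0.27 and that of Kcns3 (Kv9.3) was 0.51 (SE 0.24), with levels of 1.32, 2.71 and 3.30 CPM in HFD-O, against 1.01, 1.86 and 2.35 CPM in CON-O. Its overlap was wide, and in males Kcns3 stood at 0.10.

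The 8 Kcnh genes encode the EAG, ERG and ELK channels, of which the ERG channels slow repeated firing. In females 5 of the 8 estimates were below 0, with a median of −0.097, and in males 8 of 8, with a median of −0.18. Kcnh2 (ERG1) had 95.2, 100.1 and 104 CPM in female HFD-O, against 97.9, 109 and 117 CPM in female CON-O, and no HFD-O library passed the CON-O median. Its log2 fold change was −0.12 (SE 0.05) in females with an exact permutation p of 0.0173 (n = 6 each), and −0.11 in males with an exact p of 0.139. Over both sexes it was −0.11 (SE 0.04), with adjusted p = 0.214 in edgeR's quasi-likelihood test. Kcnh4 (ELK3) averaged 6.70 ± 1.52 CPM in HFD-O and 8.06 ± 1.63 CPM in CON-O (SD, n = 12 each), −0.26 (SE 0.13).

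Of the M-current genes, Kcnq3 averaged 72.0 ± 14.4 CPM in HFD-O and 83.7 ± 20.5 CPM in CON-O (SD, n = 12 each), a log2 fold change of −0.22. The difference was smaller than the SD of the CON-O libraries, and Kcnq5 stood at −0.05. Kcnq1, the partner of Kcne1 in the heart, had 0 to 9 counts in a library and was not tested. The BK pore Kcnma1 averaged 47.0 ± 8.38 CPM in HFD-O and 54.2 ± 12.0 CPM in CON-O, −0.20, again less than 1 SD of CON-O. Its neuronal partner Kcnmb4 stood at 0.03, with 0.11 in females and −0.05 in males. The SK genes Kcnn2 and Kcnn3 stood at −0.06 and −0.0012.

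In the Shaker family, found largely at axons, Kcna3 averaged 18.1 ± 2.70 CPM in HFD-O and 21.3 ± 4.89 CPM in CON-O (SD, n = 12 each). Its log2 fold change was −0.24 (SE 0.11), with an adjusted p of 0.364 in edgeR's quasi-likelihood test. In each sex 0 of 6 HFD-O libraries passed the median of CON-O, with an exact permutation p of 0.177 in females and 0.329 in males. In all, 8 members in females and 10 in males had 0 of 6, and the share over all genes was not taken. Kcna1 stood at −0.27 (SE 0.22) and Kcna2 at −0.21, each with a wide spread. Kcnc1, a Shaw gene of fast-spiking neurons, stood at −0.07.

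The inward rectifiers showed no common direction. Kcnj11, the ATP-sensitive pore, averaged 18.4 ± 1.19 CPM in HFD-O and 19.3 ± 2.38 CPM in CON-O (SD, n = 12 each), −0.07, while its partner Abcc8 stood at −0.13. Kcnj8, the pore of the vascular form, stood at 0.0030. The G protein-gated genes were Kcnj3 at −0.12, Kcnj6 at 0.02 and Kcnj9 at −0.12. Kcnj10 averaged 45.8 ± 7.70 CPM in HFD-O and 44.3 ± 10.6 CPM in CON-O, 0.05, and its partner Kcnj16 (Kir5.1) 72.4 ± 9.89 CPM in HFD-O and 71.0 ± 13.2 CPM in CON-O, 0.03. Kcnj14 (Kir2.4) had 11.8, 12.2 and 13.2 CPM in female HFD-O, against 10.4, 11.0 and 12.7 CPM in female CON-O, and all 6 HFD-O libraries exceeded the CON-O median although the groups overlapped. Its log2 fold change was 0.13 (SE 0.09) in females, with an exact permutation p of 0.0390 (n = 6 each) and an adjusted p of 0.802 in edgeR's quasi-likelihood test. In males it was 0.15, with an exact permutation p of 0.195 and an adjusted p of 0.960 in the quasi-likelihood test.

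Kcnj13 (Kir7.1), known from the choroid plexus and, in mice, from melanocortin-responsive neurons, was too low to be tested. It had 9, 1, 17, 0, 15 and 10 counts in the female HFD-O libraries, against 1, 6, 1, 1, 1 and 1 in female CON-O. Male libraries had 1, 2, 12, 1, 7 and 43 counts in HFD-O, against 12, 4, 2, 0, 7 and 1 in CON-O. The counts were uneven within groups, and the exact permutation p was 0.0606 in females and 0.457 in males (n = 6 each) on log2(CPM + 1). With a pseudocount of 0.1 in place of 1 the exact permutation p was 0.186 in females and 0.455 in males.

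Among the K2P genes, Kcnk5 (TASK-2, an alkaline-activated leak channel) had higher levels in male HFD-O. There it had 1.88, 2.70 and 3.20 CPM in HFD-O, against 1.36, 1.86 and 2.12 CPM in CON-O, on 9 to 26 counts in a library. All 6 male HFD-O libraries passed the median of CON-O, with some overlap. The log2 fold change was 0.52 (SE 0.19), with an exact permutation p of 0.0152 and an adjusted p of 0.949 in edgeR's quasi-likelihood test. In females Kcnk5 had 0.989, 1.83 and 2.98 CPM in HFD-O, against 0.962, 2.18 and 2.77 CPM in CON-O, −0.03. Kcnk9 (TASK-3) averaged 31.7 ± 4.04 CPM in HFD-O and 36.2 ± 6.65 CPM in CON-O (SD, n = 12 each), −0.19 (SE 0.09), while Kcnk1 (TWIK-1) stood at −0.03 and Kcnk2 (TREK-1) at 0.04.

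No member's HFD-O and CON-O libraries were fully apart. Among all genes this occurred for 0.324% of those tested in females with HFD-O higher and 0.0789% with HFD-O lower, and for 0.209% and 0.0959% in males.

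**Figure D3:**
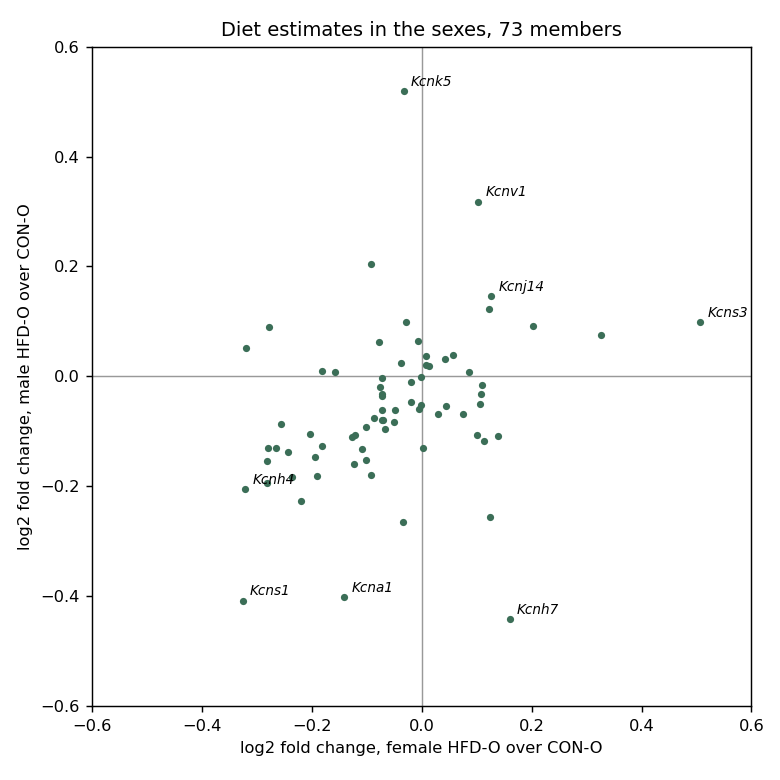
Log2 fold change of HFD-O over CON-O in males (vertical axis) against females (horizontal axis) for the 73 Kcn genes tested in both sexes, 1 point a gene. Of the points, 39 lie in the lower left field, where both estimates are below 0.

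The diet effect was compared between the sexes as the male effect minus the female effect. Of 73 members tested in both sexes, 51 (69.9%) had the same sign, against 65.2% of all genes, and 39 (53.4%) were below 0 in both, against 33.1%. Estimates were above 0 in both sexes for 12 members and of opposite sign for 22. In the test of the difference itself, 0 of 76 members were called by edgeR's quasi-likelihood test (0% of all genes) and 0 had an unadjusted p under 0.05, where 1.54% of all genes did (0.85% above 0 and 0.687% below). It was 2 without female CON-O library 8, 1 without male CON-O library 3 or 11, and 2 with consecutive libraries sharing a deviation, and none was called by DESeq2 or limma-voom. Estimates were below 0 for 37 of 76 members, against 49.1% of all genes. The difference was 0.55 (SE 0.36) for Kcnk5, −0.60 (SE 0.34) for Kcnh7, 0.17 (SE 0.12) for Kcnip4 and −0.23 (SE 0.14) for Kcne1l, a small membrane subunit. Kcnh7 (ERG3) had 2.44, 4.80 and 6.22 CPM in male HFD-O, against 3.62, 6.68 and 9.15 CPM in male CON-O. In females it had 3.59, 4.599 and 8.74 CPM in HFD-O, against 3.60, 4.09 and 7.32 CPM in CON-O. No male HFD-O library passed the CON-O median, and the female groups lay over each other. The exact permutation p of Kcnh7 was 0.123 in males and 0.591 in females (n = 6 each). Kcnh8 (ELK1), chosen after its values were seen, exceeded the CON-O median in 6 of 6 female HFD-O libraries and in 0 of 6 male ones. Its exact permutation p was 0.411 in females and 0.216 in males (n = 6 each). The male minus female difference of Kcnh8 was −0.38 (SE 0.24), with an unadjusted p of 0.130 in edgeR's quasi-likelihood test.

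Males against females gave 0 of 76 members called, where 4 of 11648 genes (0.0343%) were, by edgeR's quasi-likelihood test, with none called by DESeq2 or limma-voom either. An unadjusted p under 0.05 was found for 2 members (1.89% of all genes), 1 higher in males (0.919%) and 1 lower (0.97%). Their number was 5 without male CON-O library 11 and 1 without any one of 6 others (female CON-O library 10, female HFD-O library 14, male CON-O library 5 and male HFD-O libraries 13, 15 and 23). Estimates were below 0 for 30 of 76 members, against 48.6% of all genes. Kcns1 averaged 3.95 ± 0.969 CPM in males and 3.16 ± 0.481 CPM in females (SD, n = 12 each), a log2 difference of 0.32 (SE 0.11). Kcnmb2, a BK beta subunit that inactivates the channel, averaged 2.91 ± 0.884 CPM in males and 3.69 ± 1.01 CPM in females, −0.36 (SE 0.17). Kcnv2 stood at 0.74 (SE 0.41) and Kcna4 at −0.09. Their groups overlapped, and sex and table cannot be told apart here.

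Genes that work with the channels were followed beside them. Of 18 tested auxiliary and anchoring partners 16 were below 0 over both sexes (50.7% of all genes), with a median of −0.069. By edgeR's quasi-likelihood test 0 were called (0.189% of all genes). An unadjusted p under 0.05 was reached by 4 (12.7% of all genes), all lower (5.44%): Adam23, Dlg2, Dlg4 and Lingo1. The 4 HCN channel genes, whose channels carry the pacemaker current, were all below 0, with a median of −0.16. Hcn4 averaged 37.4 ± 3.26 CPM in HFD-O and 43.3 ± 4.92 CPM in CON-O (SD, n = 12 each), −0.21 (SE 0.06), with an adjusted p of 0.131 in edgeR's quasi-likelihood test. Summed HCN levels were 213 to 233 CPM in female HFD-O, against 237 to 257 CPM in female CON-O, and 205 to 252 CPM in male HFD-O, against 237 to 276 CPM in male CON-O. The female sums did not overlap and the male sums did, but the share of such sums over all genes was not taken. Of 11 tested genes of the sodium-potassium pump, which builds the gradient these channels use, 4 were below 0, and the median was 0.041.

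Neuronal markers leaned the same way as the channels: 9 of 10 were below 0 over both sexes, with a median of −0.075, and their summed level was 7295 to 8616 CPM in HFD-O, against 7679 to 9301 CPM in CON-O. Other lists leaned up. Leptomeningeal genes were above 0 for 8 of 8 (median 1.18, sums of 125 to 734 CPM in HFD-O, against 74.0 to 469 CPM in CON-O), erythroid genes for 5 of 5 (median 1.03) and astrocyte genes for 5 of 6 (median 0.12, sums of 2807 to 3858 CPM in HFD-O, against 2394 to 3701 CPM in CON-O). All genes of the leptomeningeal and erythroid lists are among those the study itself called higher in female HFD-O from these libraries. The direction of the leptomeningeal and erythroid lists was therefore known beforehand and is not an independent result. The same holds in part for other lists. In females the study also called Gfap and Gjb6 of the astrocyte list, Vtn of the mural list and Avp of the hypothalamic list higher. In males it called Gfap, and Th and Slc6a3 of the midbrain dopamine list, higher. Medians were 0.28 for oligodendrocytes (7 of 7 above 0), 0.016 for their precursors (3 of 5), 0.15 for microglia (6 of 7), 0.15 for endothelium (5 of 5), 0.15 for mural cells (5 of 5), 0.18 for choroid plexus (4 of 4) and 0.27 for ependyma (3 of 3). For tissue near the hypothalamus they were 0.44 for midbrain dopamine genes (4 of 4), 0.016 for thalamus (2 of 4) and 0.084 for telencephalon (3 of 4), and −0.079 for the hypothalamic genes (5 of 10). The part of these lists in the lean of the Kcn genes was not tested.

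The Kcn genes together made up 2441 ± 96.1 CPM in female HFD-O and 2550 ± 152 CPM in female CON-O, and 2496 ± 34.9 CPM in male HFD-O and 2581 ± 119 CPM in male CON-O (SD, n = 6 each). Single CON-O libraries lay below these means: the female library 4 had 2279 CPM and the male library 3 had 2345 CPM, the lowest of their sexes.

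**Figure D4:**
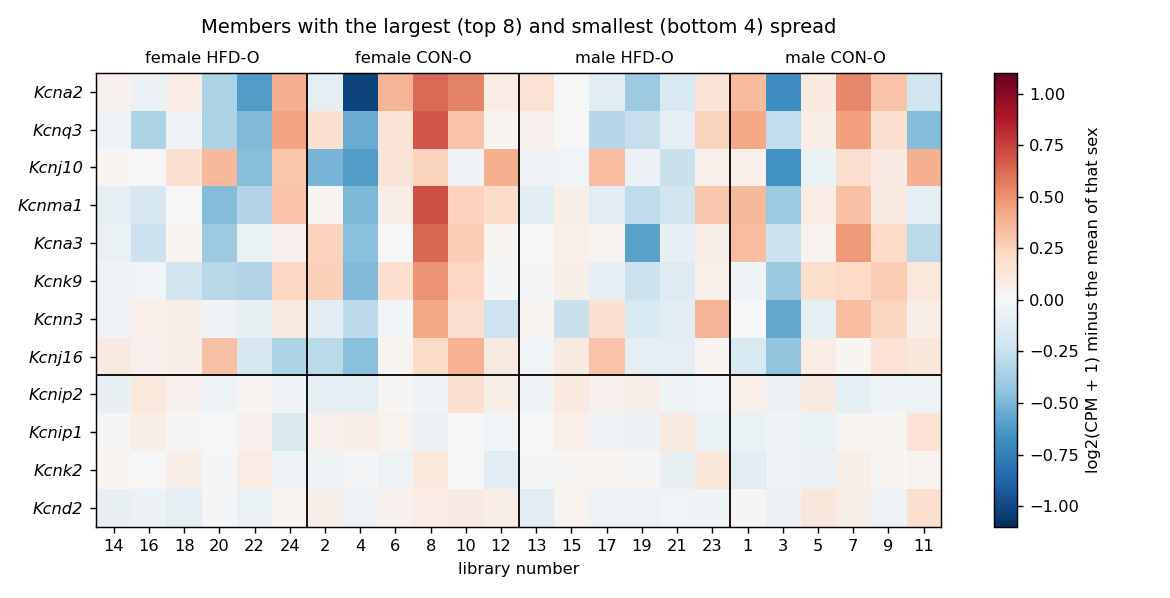
Level of the Kcn genes with the largest and smallest spread in each of the 24 libraries, as the difference from the mean of that sex on the log2(CPM + 1) scale (colour), with genes down the page and libraries across it, HFD-O left of CON-O. The columns of female CON-O library 4 and male CON-O library 3 are low across most of the widely spread genes.

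Members differed in how widely their levels spread between libraries of a group. The spread was taken as the SD of log2(CPM + 1) around the group means, beside the median SD of the 200 genes nearest in level, and 43 of 76 members lay above that median. Of members at 10 CPM or more, Kcna2 had an SD of 0.43 (0.18 for genes of like level), Kcnq3 0.34 (0.10), Kcnj10 0.33 (0.12) and Kcnma1 0.29 (0.12). The least spread were Kcnip2 at 0.082, Kcnip1 at 0.073, Kcnk2 at 0.068 and Kcnd2 at 0.063. Female CON-O library 4 was the lowest female library for all 8 of the most widely spread members, with 6.98 CPM of Kcna2 and 49.9 CPM of Kcnq3. Female CON-O library 8 was the highest female library for 6 of them, with 24.0 CPM of Kcna2 and 118 CPM of Kcnq3, and male CON-O library 3 was the lowest male library for 6. HFD-O libraries were extreme in other cases. In males HFD-O library 19 was the lowest for Kcna3, HFD-O library 23 the highest for Kcnn3 and HFD-O library 17 the highest for Kcnj16. For the other members the highest male library was a CON-O one, library 7 for 3 of the 8.

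**Figure D5:**
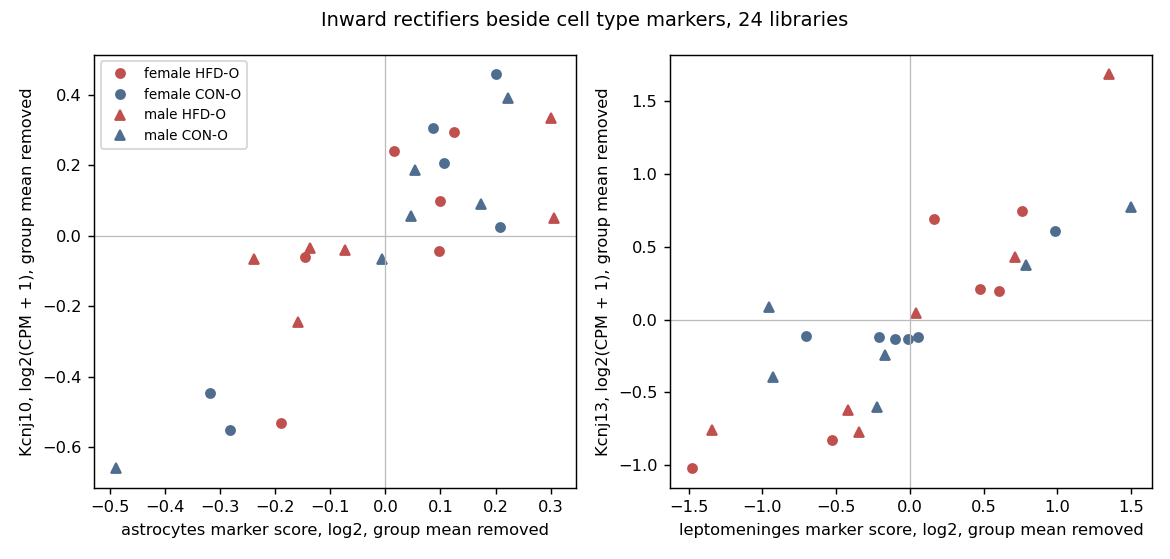
Level of a Kcn gene as log2(CPM + 1) (vertical axis) against a marker score on the log2 scale (horizontal axis) in the 24 libraries, both after removal of the group means, with a colour for each diet and a shape for each sex. Kcnj10 climbs with the astrocyte score (left, r = 0.840) and Kcnj13 with the leptomeninges score (right, r = 0.836).

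The 7 channel and marker pairs were chosen from textbook knowledge of where the channels sit, with earlier results of these data known. They were followed across the 24 libraries, with group means removed, permutation p-values drawn within groups and p-values adjusted over the pairs. Kcnj10 followed the astrocyte score with Pearson r = 0.840 (permutation p = 4e-05, adjusted 0.00014) and Spearman rho = 0.802, with r = 0.756 without the 2 libraries farthest from the median score and r = 0.868 in males and 0.860 in females. Kcnj16 did so with r = 0.765 (permutation p = 0.00019, adjusted 0.000443), rho = 0.758, and r = 0.681 without 2 libraries, 0.816 in males and 0.785 in females. Kcnj13 followed the leptomeninges score with r = 0.836 (permutation p = 2e-05, adjusted 0.00014), rho = 0.839, and r = 0.801 without 2 libraries, 0.822 in males and 0.861 in females.

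Kcnj13 and the choroid plexus score gave r = 0.661 (permutation p = 0.00135, adjusted 0.00236), rho = 0.670 and r = 0.546 without 2 libraries. Of the 6 choroid plexus genes, 4 passed the filter on low counts over the 24 libraries, while Ttr and Cldn2 did not. Whether this score follows the amount of choroid plexus in a library was not tested. Kcnj8 and Abcc9, the partner of the vascular form, gave r = 0.510 (permutation p = 0.0141, adjusted 0.0197), rho = 0.661 and r = 0.675 without 2 libraries. The test was not passed by Kcnj8 with the mural score (r = 0.276, rho = 0.286, permutation p = 0.230) or by Kcnj11 with Abcc8 (r = −0.124, rho = −0.190, permutation p = 0.542). Libraries with consecutive numbers may share a deviation, so the 24 may not be independent.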

How the data were processed

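RNA was sequenced from whole hypothalamus of 24 pups at PN10. The authors deposited whole-number counts per gene and library in 1 table per sex, and these counts are the base of every value. The submitters' notes list FastQC, TopHat, edgeR and the build rn6, while the study's methods name Trimmomatic and Bowtie2. Which program counted the reads, its annotation and its strand setting: not given in the sources used here. A further 24 library columns deposited beside them hold a signal made from the counts and were not used, nor were the authors' own columns of log2 fold change, log2 CPM, test score, p-value and adjusted p-value. Spreadsheet dates stood for 23 gene names in the female table and 24 in the male table, and those listed more than once under a date were left out of the fit over all libraries.

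Tests were run with edgeR 4.0.16 in R 4.3.3 (filterByExpr, minimum count 10 and minimum total 15, TMM, quasi-likelihood F test, Benjamini-Hochberg over all genes kept), within each sex and, with sex, diet and their interaction, over all libraries. Single values were tested by exact permutation of log2(CPM + 1) over the 924 splits of 6 against 6, and pairs with 100000 draws. Alternatives were the likelihood ratio test, DESeq2 1.42.0, limma 3.58.1 (voom), voom with consecutively numbered libraries as a random effect (correlation 0.316), RLE scaling, no filter, another pseudocount, and leaving out each library. The quasi-likelihood fit was tested on simulated data. Figures were drawn in Python 3.11.15 with matplotlib 3.10.9.

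The members, marker lists and pairs were chosen with earlier results of these data known. Members are named where they had the smallest p in each direction (3 for a diet comparison, 2 for the others), stood on a list of genes of known role, or had 1 of the 4 largest or 4 smallest spreads at 10 CPM or more. Kcna3, Kcnd1, Kcnd3, Kcng2, Kcnh4, Kcnh8, Kcns2 and Kcnrg were named after their values were seen. Single results of 3 members are not reported here. No transcript lengths were used, so levels are not compared between genes.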

Additional observations from a re-analysis of the deposited data

Results flagged for a closer look

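Dixon's test was run on 136 groups of 6 libraries over 34 named members, where chance alone marks about 1 group in 20, and 8 groups had a library far from the rest. In HFD-O, female library 24 had 114 CPM of Kcnj6, with the nearest at 88.7 CPM, and 112 CPM of Kcnip1, with the nearest at 124 CPM. Male library 23 had 97.7 CPM of Kcnj6, with the nearest at 92.3 CPM, and 66.8 CPM of Kcnc1, with the nearest at 81.0 CPM. Female library 14 had 0 CPM of Kcnv2, with the nearest at 0.653 CPM. In CON-O, female library 4 had 215 CPM of Kcnd2, with the nearest at 229 CPM, and female library 12 had 22.5 CPM of Kcnj11, with the nearest at 19.0 CPM. Male library 11 had 29.7 CPM of Kcne1l, with the nearest at 21.3 CPM.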

How the results depend on the processing

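Over both sexes 0 Kcn genes were called, against 1 by the likelihood ratio test, 1 by DESeq2 and 0 to 1 when a library was left out, with the 1 found without female HFD-O library 24. In the other comparisons 0 were called under every alternative run. Kcn estimates below 0 numbered 43 to 55 in females, 48 to 56 in males and 49 to 56 over both sexes when a library was left out. All genes called over both sexes numbered 22, against 93 by the likelihood ratio test, 93 by DESeq2, 1 with consecutive libraries sharing a deviation and 3 to 46 when a library was left out, in females 0, against 50 by the likelihood ratio test, 20 by DESeq2 and 0 to 10 when a library was left out. Kcn genes at an unadjusted p under 0.05 over both sexes numbered 9, against 4 with consecutive libraries sharing a deviation and 6 to 17 when a library was left out. They numbered 5 in females, against 3 to 12 when a library was left out, and 4 in males, against 3 to 7. In males against females they numbered 2, against 5 with consecutive libraries sharing a deviation and 1 to 5 when a library was left out.

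Estimates near 0 changed sign over both sexes. The Kcnj8 log2 fold change, maternal diet over both sexes, was 0.0030, against −0.0030 by limma-voom, −0.0037 with consecutive libraries sharing a deviation and −0.034 to 0.044 when a library was left out. Kcnn3 stood at −0.0012, against 0.016 by limma-voom, 0.015 with consecutive libraries sharing a deviation and −0.049 to 0.052 when a library was left out. When a library was left out, Kcnj16 ranged from −0.013 to 0.071, Kcnj10 from −0.0061 to 0.096 and Kcnj6 from −0.026 to 0.047. The cause was not tested. Groups share no library number, and all CON-O numbers lie below all HFD-O numbers, so diet and library order cannot be told apart. Each pair of consecutive numbers holds a male and a female of the same diet, and these pairs were the random effect above. Depth limits the low members, such as Kcnk5 with 9 to 26 counts in a male library.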
